A study of Homo sapiens with 24 samples.

Results

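The SMAD genes encode the intracellular signal carriers of the TGF-beta and BMP pathways. The 8 human members, SMAD1 to SMAD7 and SMAD9, were taken by name and make up 8 of the 29794 genes in each count table. PolyA RNA-seq was used to ask which mRNAs change when a single miRNA is switched on in Flp-In T-REx 293 cells, an engineered derivative of the HEK293 human embryonic kidney line with a doxycycline-controlled repressor. The 24 libraries fell into 2 batches, each with its own empty vector control. In batch 1, empty vector, miR-1 and miR-122 cells had 2 libraries per group. In batch 2, empty vector cells and cells with miR-155, miR-133a, miR-373, miR-372 or miR-302a had 3 libraries per group. All cells, controls included, carried a lentiviral vector with a doxycycline-inducible CMV promoter driving GFP, were selected in 1 mg/mL geneticin for 6 days, and received 1 ug/mL doxycycline for 7 days. In the miRNA groups a hairpin lay in an intron upstream of GFP, and the control vector lacked it. The lines were pools of stably transduced cells, and replicates were transduced and grown separately, so the amount of miRNA made from this strong promoter need not match that of any tissue.

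When a TGF-beta family ligand binds its receptors, the receptor kinases phosphorylate the receptor-regulated SMADs. SMAD2 and SMAD3 mainly carry TGF-beta, activin and nodal signals, and SMAD1, SMAD5 and SMAD9 mainly carry BMP signals. Both kinds pair with SMAD4, the common partner, and enter the nucleus to regulate transcription. SMAD6 and SMAD7 are inhibitory members that act on receptors and on the other SMADs, and are themselves induced by the pathways they restrain. A miRNA pairs through its seed, bases 2 to 8 from its 5′ end, with complementary stretches of an mRNA's 3'UTR and lowers the stability and translation of that mRNA. SMAD1, SMAD2 and SMAD5 have been reported as targets of miR-155, a miRNA best known from immune cells.

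The mature miRNAs are shown because their seeds decide which stretches of the SMAD mRNAs were searched. They are RefSeq sequences, 5′ to 3′, with the seed in capitals. The labels do not give the hairpin arm, so the arm commonly described as the functional one was used.
miR-155-5p: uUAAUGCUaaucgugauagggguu
miR-302a-3p: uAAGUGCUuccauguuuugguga
miR-372-3p: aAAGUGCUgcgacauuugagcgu
miR-373-3p: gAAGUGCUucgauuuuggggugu
miR-1-3p: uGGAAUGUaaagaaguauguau
miR-122-5p: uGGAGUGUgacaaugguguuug
miR-133a-3p: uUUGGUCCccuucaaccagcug
The seed AAGUGCU is shared by miR-302a, miR-372 and by miR-373, and the other 4 miRNAs each have their own.

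A match was counted as an 8mer when the 3'UTR held the complement of bases 2 to 8 followed by A, as a 7mer-m8 when the A was missing, and as a 7mer-A1 when the complement of base 8 was missing. For miR-155 these are AGCATTAA, AGCATTA and GCATTAA. Only the transcript strand was searched, in the longest annotated 3'UTR of each gene (GENCODE 44 lifted to GRCh37), and a stretch was counted under 1 class only. The miR-155 matches of the 3 BMP receptor SMADs are printed below with the bases before them, 30 bases each, with the match in capitals, since these genes differed most in their response to miR-155.
SMAD1 8mer, 378 bases from the stop codon, chr4:146479442-146479471, plus strand: ggtcatcgttgggcagaagtttAGCATTAA
SMAD5 7mer-m8, 735 bases from the stop codon, chr5:135513881-135513910, plus strand: catttactcaaaatctgtcataAGCATTAc
SMAD5 7mer-A1, 830 bases from the stop codon, chr5:135513975-135514004, plus strand: tgcaagaactctatttttgacatGCATTAA
SMAD9 7mer-m8, 1454 bases from the stop codon, chr13:37421352-37421381, minus strand: acattttatctcaactctttctAGCATTAg
SMAD9 7mer-A1, 2053 bases from the stop codon, chr13:37420754-37420783, minus strand: catgtccccttttcttagaaaagGCATTAA
SMAD5 thus held 2 matches and no 8mer, SMAD9 held the same pair of classes, and SMAD1 held a single 8mer. All were present in only part of the annotated transcripts with a 3'UTR. These were 1 of 3 for the SMAD1 match, 2 of 4 for both SMAD5 matches and 1 of 2 for both SMAD9 matches.

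Among the TGF-beta receptor SMADs, SMAD3 held 1 7mer-m8 for miR-155, 4299 bases from the stop codon. SMAD2 held an 8mer at 8694, a 7mer-A1 at 8252 and a 7mer-m8 at 17931 bases. These lie in an annotated 3'UTR of 32870 bases, which is longer than the 13146 bases of exon over which SMAD2 reads were counted, so part of it was outside the measurement. SMAD4, SMAD6 and SMAD7 held none. The seed AAGUGCU had 2 7mer-m8 matches in SMAD9, 6 matches in SMAD2, and 1 7mer-m8 each in SMAD3 and SMAD5, with no 8mer in any SMAD. Such matches are common, since 22.1% of the 13041 tested genes with an annotated 3'UTR held a 7mer-m8 for this seed and no 8mer. The SMAD9 matches are printed because SMAD9 was the SMAD with the largest called change in the cells with these miRNAs.
SMAD9, 1397 bases from the stop codon, chr13:37421409-37421438, minus strand: ggcagttatgcttgtaacagacAGCACTTc
SMAD9, 2584 bases from the stop codon, chr13:37420222-37420251, minus strand: agtggctcattcctatagtcccAGCACTTt
For miR-1, SMAD2 held 6 matches, of which 2 were 8mers, SMAD4 held 2 7mer-A1, SMAD3 held 1 7mer-m8 and SMAD9 held 1 7mer-A1. For miR-133a only SMAD2 held a match in the longest 3'UTR, an 8mer and a 7mer-m8. For miR-122, SMAD2 held 4 matches, and SMAD3 and SMAD5 held 1 7mer-A1 each. When every annotated 3'UTR was searched, SMAD6 gained 1 match each for miR-122 and miR-133a, and no other count moved.

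**Figure D1:**
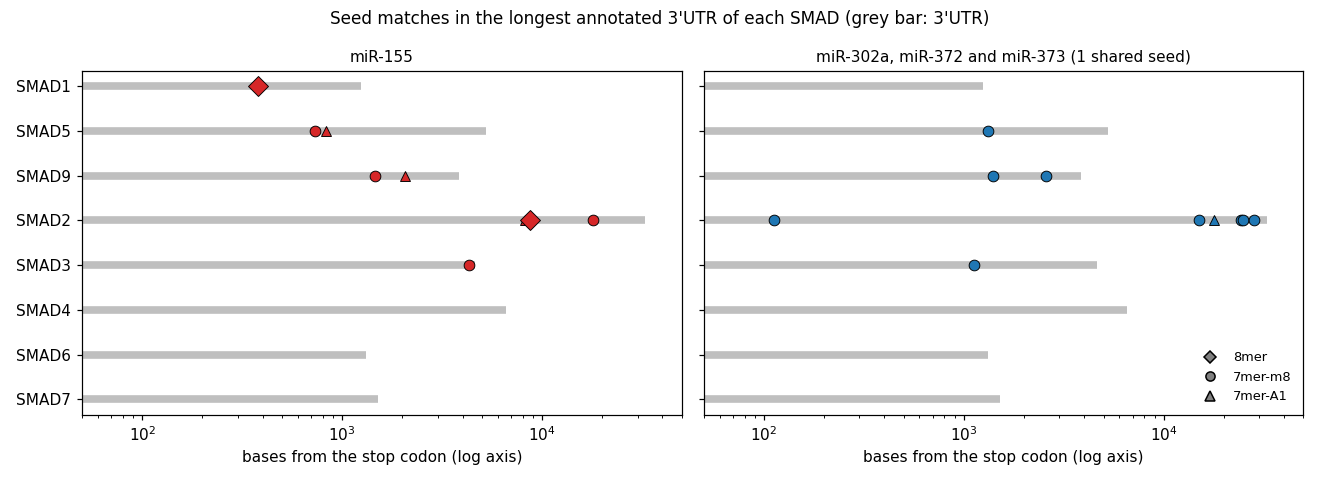
Positions of seed matches in the longest annotated 3'UTR of each SMAD, as bases from the stop codon on a log axis, for miR-155 (left) and the seed AAGUGCU of miR-302a and its 2 relatives (right). Grey bars are the 3'UTRs, diamonds are 8mers, circles 7mer-m8 and triangles 7mer-A1 matches, and SMAD4, SMAD6 and SMAD7 carry no match for either seed.

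All 8 SMADs were expressed and passed the filter on low counts in both batches, with 14348 genes tested in batch 1 and 14054 in batch 2. Levels are given as CPM, counts scaled to the depth of each library after TMM correction for differences in composition. Different genes were compared only per length, as CPM per kilobase of counted exon. In batch 2 empty vector cells SMAD5 had by far the highest level, 25.7 ± 1.13 CPM per kilobase (SD, n = 3). SMAD9 followed with 9.92 ± 0.0866, SMAD4 with 9.10 ± 0.578 and SMAD3 with 8.34 ± 0.235. SMAD7 had 6.27 ± 0.231, SMAD2 5.26 ± 0.122, SMAD1 5.23 ± 0.428 and SMAD6 5.06 ± 0.892 CPM per kilobase. The libraries of SMAD9 and SMAD4 did not overlap, those of SMAD4 and SMAD3 overlapped by a small margin, and those of SMAD2, SMAD1 and SMAD6 overlapped so that their order is not set. Batch 1 empty vector cells had SMAD5 first at 24.4 ± 0.408 (SD, n = 2), then SMAD9, SMAD4 and SMAD3, with the libraries of SMAD9 and SMAD4 overlapping. There the libraries of SMAD7, 5.69 and 6.91 CPM per kilobase, spanned those of SMAD1 and SMAD2, so the order of these is not set.

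The libraries held 13047400 to 35040778 reads assigned to genes, and each batch 2 SMAD value in empty vector cells rested on 188 to 3027 reads. The markers used for the HEK293 line differed widely in level. Over all 24 libraries KRT8 had 175.5 to 297, KRT18 79.6 to 121, VIM 908 to 1310 and INA 56.9 to 82.7 CPM. PAX2 had only 5.28 to 13.8 and NEFM 1.26 to 4.42 CPM, PAX8 was at most 0.211 CPM, and LHX1 and NEFL had no entry under these symbols. The hepatocyte and blood markers were at or below 0.926 CPM. Of the striated muscle markers MYH3 reached 8.07 CPM and MYOD1 and ACTA1 stayed at or below 1.21. Genes well known as targets fell with their own miRNA: BACH1 by 1.11 and JARID2 by 1.16 on the log2 scale with miR-155, TWF1 by 1.99 with miR-1, ALDOA by 0.47 with miR-122, TAGLN2 by 1.95 with miR-133a, and LATS2 by 0.85, 1.08 and 0.80 with miR-302a, then miR-372, then miR-373. These genes were chosen with earlier results of these data known, so their falls are no independent check. Not all of these genes fell with their own miRNA alone. TWF1 was also called lower with miR-155, by 0.90, and with each miRNA of the shared seed, by 0.44 to 0.53. TAGLN2 and JARID2 were also called lower with miR-1, by 1.11 and 0.43. TAGLN2 was called higher with miR-122 and miR-155, by 0.21 and 0.31. BACH1, ALDOA and LATS2 were called lower with no other miRNA. The mature miRNAs themselves were not measured in these libraries.

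SMAD5 mRNA fell more with miR-155 than any other SMAD fell with any of the 7 miRNAs. SMAD5 CPM was 212, 199 and 195 in the batch 2 empty vector libraries and 110, 90.0 and 118 in the miR-155 libraries. The highest miR-155 library was thus well below the lowest control. The log2 fold change was -0.93 (SE 0.0862, 95% interval -1.11 to -0.75), a fall of 47.7%, with an adjusted p of 1.18e-06 by edgeR's quasi-likelihood test over 14054 genes. Ordered by p, SMAD5 stood at place 15 among all tested genes, and ordered by fold change at place 203 from the lowest. In these bulk samples fewer cells with the mRNA and less mRNA per cell cannot be told apart. The lowest of the miR-155 libraries, replicate 2, is also the 1 whose counts over all genes differed most from those of its group, and without it the log2 fold change was -0.83 and remained past the threshold. In all, 3 of the 8 SMADs were called lower with miR-155 and none higher, beside 7.63% of all tested genes called in either direction. The median log2 fold change over the 8 SMADs was -0.21, and over all tested genes 0.01.

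SMAD9, which encodes the least studied BMP receptor SMAD, had CPM of 55.0, 55.9 and 55.5 in empty vector cells and 39.7, 41.1 and 39.9 with miR-155. The values within each group differed by little, and the groups were far apart. The log2 fold change was -0.47 (SE 0.0728, adjusted p = 0.000409, edgeR), a fall of 27.6%. SMAD1, the third BMP receptor SMAD and the holder of the 8mer, had CPM of 14.1, 16.5 and 16.1 in empty vector cells and 11.1, 12.8 and 12.3 with miR-155. Every miR-155 library was below every control, but the difference of -0.37 on the log2 scale (SE 0.126, 95% interval -0.63 to -0.10) did not pass the threshold, with an adjusted p of 0.0822 (edgeR). SMAD1 was also the SMAD with the fewest reads, 168 to 250 in these 6 libraries, and its interval spans both no more than a small fall and a fall larger than that of SMAD9. Summed per length over SMAD1, SMAD5 and SMAD9, the BMP receptor SMADs amounted to 40.8 ± 0.704 CPM per kilobase in empty vector cells and 24.7 ± 1.56 with miR-155 (SD, n = 3). SMAD5 made up 62.9% ± 1.75 of that sum in the controls and 54.3% ± 4.14 with miR-155.

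SMAD2, a carrier of TGF-beta and activin signals, had CPM of 70.1, 70.0 and 67.3 in empty vector cells and 57.4, 59.7 and 61.4 with miR-155. The groups did not overlap, and the log2 fold change of -0.22 (SE 0.0648) passed the threshold narrowly, with an adjusted p of 0.0468 (edgeR). That call was lost when any 1 of the 6 libraries was left out, with log2 fold changes of -0.24 to -0.18, and adjusted p-values over all alternatives ran from 0.0255 to 0.192. SMAD3 had CPM of 65.9, 69.7 and 67.4 in empty vector cells and 62.2, 49.5 and 65.4 with miR-155. A single low library, replicate 2, set most of that mean difference, and the log2 fold change of -0.20 had an adjusted p of 0.231 (edgeR).

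SMAD4, the common partner, had 85.0, 83.9 and 89.2 CPM with miR-155 and 96.1, 89.0 and 84.8 in the controls. These ranges overlapped, and the log2 fold change was -0.06 (95% interval -0.21 to 0.08). SMAD6 had 17.0, 19.0 and 17.9 CPM with miR-155 and 14.8, 20.3 and 20.6 in the controls, again overlapping, with a log2 fold change of -0.05 (95% interval -0.33 to 0.23). SMAD7 was the only SMAD with a positive log2 fold change in miR-155 cells. Its CPM was 24.6, 22.6 and 25.5 against 20.3, 19.8 and 21.3, with no overlap, but the log2 fold change of 0.25 (SE 0.110) did not pass the threshold (adjusted p = 0.181, edgeR). None of the 3 SMADs without a miR-155 seed match was called, and of the 5 with a match SMAD5, SMAD9 and SMAD2 were called lower and SMAD1 and SMAD3 were not called. Over all tested genes with an annotated 3'UTR, 17.7% of those with a match and 2.06% of those without were called lower. So few genes without a match were called that none among 3 says little.

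**Figure D2:**
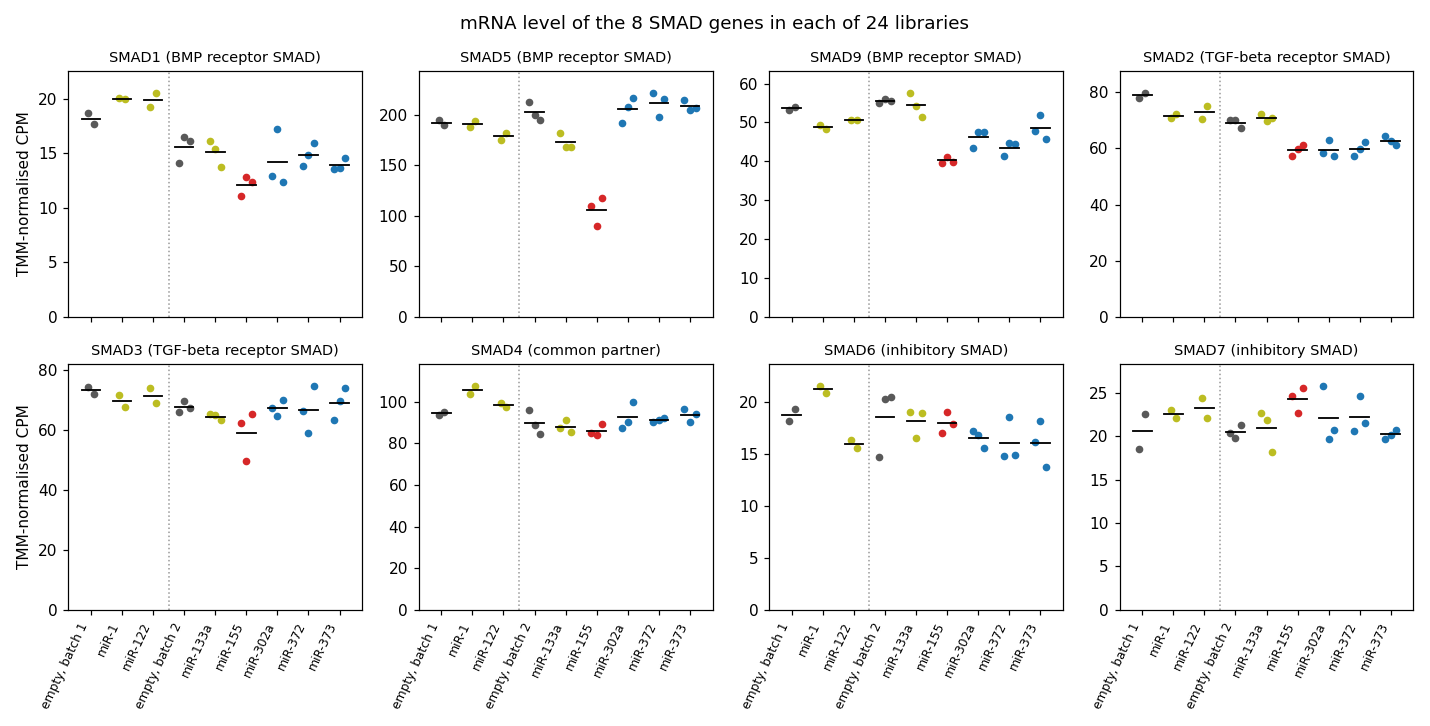
TMM-normalised CPM of each SMAD in each of the 24 libraries, by group, with a dotted line between the batches. Points are libraries and horizontal lines group means. The miR-155 libraries of SMAD5 lie at 90.0 to 118 CPM, below every other library of the batch.

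Read against all genes, the fall of SMAD5 was larger than usual for its matches. Of 13041 tested genes of batch 2 with an annotated 3'UTR, 185 (1.42%) held a 7mer-m8 and a 7mer-A1 for miR-155 but no 8mer, as SMAD5 and SMAD9 do. Their median log2 fold change with miR-155 was -0.16, and 20.5% of them were called lower. Of the 654 genes (5.01%) with an 8mer, as in SMAD1 and SMAD2, 29.4% were called lower, with a median of -0.23. Of the 10537 genes with no match, 2.06% were called lower, with a median of 0.03. SMAD1 at -0.37 and SMAD2 at -0.22 thus lay below and near the median of genes with an 8mer.

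The genes with the most similar pattern to SMAD5 over the 18 libraries of batch 2, among 12418 genes, were BACH1, PRKCI and FAR1, with Pearson correlations of log2 CPM of 0.979, 0.961 and 0.960. The correlations are a description, since the 18 points are 6 groups of libraries and the miR-155 group lies apart. BACH1, a transcriptional repressor, fell by 1.11 with miR-155 and FAR1, a fatty acyl-CoA reductase, by 0.72 on the log2 scale, and both hold an 8mer for miR-155. PRKCI, an atypical protein kinase C, fell by 0.30 and holds 2 7mer-A1 matches. Among the other SMADs the correlation with SMAD5 was highest for SMAD3 (0.690) and SMAD4 (0.616), and it was negative for SMAD6 (-0.35) and SMAD7 (-0.49).

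The 3 miRNAs of shared seed, best known from embryonic stem cells, were accompanied by lower SMAD9 and SMAD2 but not by lower SMAD5. SMAD9 CPM was 43.5, 47.6 and 47.4 with miR-302a, 41.3, 44.8 and 44.4 with miR-372, and 47.8, 51.9 and 45.7 with miR-373, against 55.0 to 55.9 in empty vector cells. All 9 libraries were below all 3 controls, which these comparisons share with each other and with that of miR-155. The log2 fold change was -0.26 with miR-302a (adjusted p = 0.0290), -0.35 with miR-372 (adjusted p = 0.00371) and -0.20 with miR-373 (adjusted p = 0.132, not called). Over the mean of the 3 miRNAs it was -0.27 (SE 0.0580, adjusted p = 0.00355, edgeR). Of all tested genes with a 7mer-m8 for this seed and no 8mer, as in SMAD9 and SMAD2, 7.01% were called lower with miR-302a, 9.06% with miR-372 and 4.51% with miR-373. Of genes with no match these shares were 3.03%, 4.41% and 1.93%. The miR-302a call of SMAD9 was lost without any 1 of the 3 empty vector libraries, without miR-302a replicate 1 and without replicate 3, with log2 fold changes of -0.29 to -0.22 over all 6 omissions.

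SMAD2 CPM was 58.5, 63.0 and 57.2 with miR-302a, 57.2, 59.7 and 62.4 with miR-372, and 64.4, 62.5 and 61.3 with miR-373, against 67.3 to 70.1 in empty vector cells. Again all 9 libraries lay below the controls. The comparisons of the 3 miRNAs and that of miR-155 share the same empty vector libraries, so their falls of SMAD2 are not independent. The log2 fold change was -0.21 with miR-302a (adjusted p = 0.0481), -0.21 with miR-372 (adjusted p = 0.0419), -0.14 with miR-373 (adjusted p = 0.250, not called) and -0.19 over the mean of the 3 (adjusted p = 0.0196, edgeR). As with miR-155, the calls against single miRNAs lay near the threshold. For miR-302a the call was lost without any 1 of the empty vector libraries or without miR-302a replicate 1 or 3 (-0.26 to -0.18 over all 6), and for miR-372 without any of the empty vector libraries or miR-372 replicate 1 or 2 (-0.24 to -0.17). The call over the mean of the 3 was lost without any 1 of the 3 empty vector libraries (adjusted p 0.0526 to 0.107, and 0.0109 to 0.121 over all alternatives).

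SMAD5 CPM was 192, 208 and 216 with miR-302a, 221, 197 and 216 with miR-372, and 214, 205 and 207 with miR-373. These values overlapped the controls, and the mean of the 3 miRNAs differed from empty vector by 0.04 on the log2 scale (95% interval -0.10 to 0.19). A fall of SMAD5 like that with miR-155 lies far outside this interval. The remaining SMADs were not called. In counts, 2 of 8 SMADs were called with miR-302a beside 7.88% of all genes, 2 with miR-372 beside 11.4%, none with miR-373 beside 5.13%, and 2 over the mean of the 3 miRNAs beside 15.4%. With miR-373, 2 SMADs (SMAD2 and SMAD9) had an unadjusted p under 0.05, and DESeq2 and the edgeR likelihood ratio test also called 0.

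**Figure D3:**
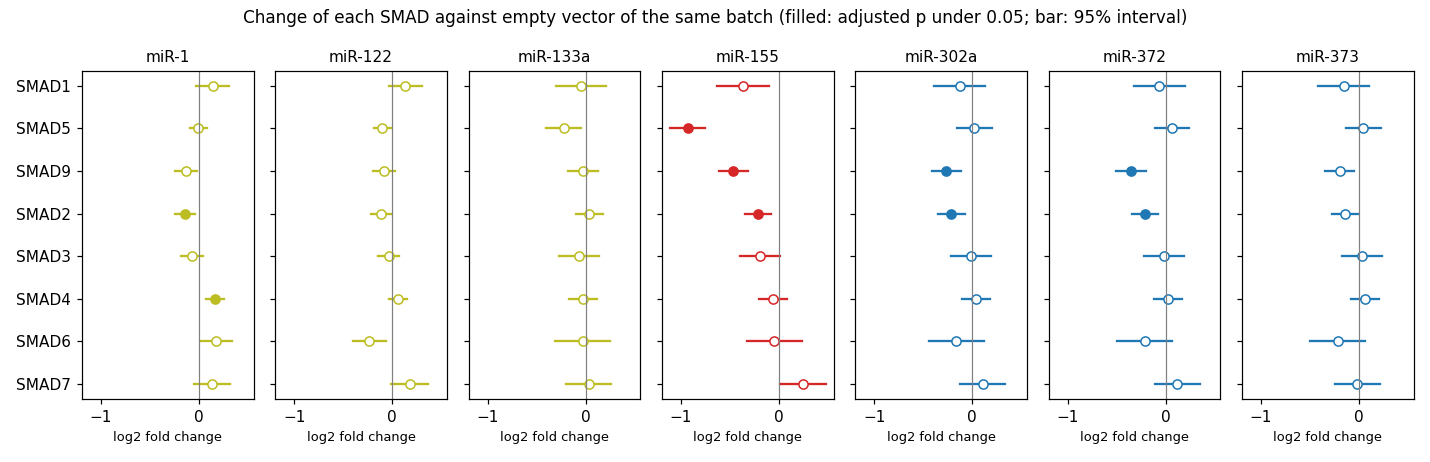
Log2 fold change of each SMAD against the empty vector of its own batch, 1 panel per miRNA, with 95% intervals. Filled points have an adjusted p under 0.05 and open points do not. SMAD5 with miR-155 lies at -0.93, apart from every other point.

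Direct contrasts between miRNA groups tested where these responses differed. The empty vector levels do not enter these differences, though the empty vector libraries share in the estimate of the spread. SMAD5 was lower with miR-155 than with miR-133a by 0.71 on the log2 scale (adjusted p = 1.01e-05), than with miR-302a by 0.96 (adjusted p = 4.00e-07), than with miR-372 by 1.00 (adjusted p = 2.20e-07) and than with miR-373 by 0.98 (adjusted p = 2.71e-07, edgeR throughout). Each of these was also called in every alternative. SMAD9 was lower with miR-155 than with miR-133a (log2 difference -0.44, adjusted p = 0.000317) and miR-373 (-0.27, adjusted p = 0.0145). Against miR-302a the SMAD9 difference was -0.20 (adjusted p = 0.0658, and 0.0486 with the replicate number as a block, edgeR), and against miR-372 it was -0.11 (95% interval -0.27 to 0.04). The miR-373 contrast of SMAD9 was no longer called without miR-155 replicate 1 or miR-373 replicate 2, with log2 differences of -0.31 to -0.21, nor with no filter (adjusted p = 0.0580) or when only these 2 groups were fitted (adjusted p = 0.0567), within 0.00679 to 0.0841 over all alternatives.

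SMAD2 was lower with miR-155 than with miR-133a (log2 difference -0.25, adjusted p = 0.00993, edgeR), a call lost without miR-133a replicate 1 or miR-155 replicate 1 (adjusted p 0.0502 and 0.0614, within 0.00261 to 0.0828 over all alternatives). Against the miRNAs of shared seed, miR-302a first and miR-373 last, the SMAD2 differences were 0.00 (95% interval -0.14 to 0.13), -0.01 (-0.14 to 0.13) and -0.07 (-0.21 to 0.06). The intervals exclude differences the size of that for SMAD5. The contrasts of miR-155 called 3 of 8 SMADs against miR-133a beside 16.7% of all genes, 1 against miR-302a beside 17.3%, 1 against miR-372 beside 18.8%, and 2 against miR-373 beside 18.1%.

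Between the miRNAs of the shared seed, no SMAD and no other gene was called by edgeR's quasi-likelihood test, so the background was 0.00% for miR-302a against miR-372, 0.00% for miR-302a against miR-373 and 0.00% for miR-372 against miR-373. An unadjusted p under 0.05 was found for 0.868%, 1.31% and 1.11% of the 14054 genes, below the share that uniform p-values would give, and DESeq2 called 0, 3 and 1 genes. Among the SMADs only SMAD9 in miR-372 against miR-373 had an unadjusted p under 0.05, with 41.3, 44.8 and 44.4 against 47.8, 51.9 and 45.7 CPM and a log2 difference of -0.15 (SE 0.0718).

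In miR-133a cells no SMAD was called, beside 5.34% of all genes. The largest difference was that of SMAD5, with 182, 168 and 168 CPM against 195 to 212 in empty vector cells. The libraries did not overlap, and the log2 fold change was -0.23 (95% interval -0.40 to -0.05, adjusted p = 0.135, edgeR). It was the 1 SMAD with an unadjusted p under 0.05. When only these 2 groups were fitted, SMAD5 was called (adjusted p = 0.0203, with 0.0203 to 0.362 over all alternatives). DESeq2 and the edgeR likelihood ratio test called 0. SMAD2, the only SMAD with miR-133a matches in its longest 3'UTR, had 72.4, 69.6 and 70.9 CPM with miR-133a, overlapping the controls, and a log2 fold change of 0.04 (95% interval -0.10 to 0.17). Its 8mer and 7mer-m8 lie 20875 and 30242 bases from the stop codon, each in 1 of 5 annotated transcripts. Both distances exceed the 13146 bases of exon counted for SMAD2, so whether the measured mRNA held these matches is not known.

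In batch 1, with 2 libraries per group, differences were small. In miR-1 cells SMAD4 had 104 and 108 CPM against 93.6 and 95.3 in empty vector cells, and its log2 fold change of 0.16 passed the threshold (SE 0.0449, adjusted p = 0.0126, edgeR). SMAD2 had 70.8 and 72.2 CPM against 78.1 and 79.7, a log2 fold change of -0.14 (SE 0.0497, adjusted p = 0.0418). These 2 calls stand beside 24.5% of all tested genes called with miR-1, so a call of 2 in 8 is near the background. Neither was called by DESeq2 (adjusted p 0.0595 and 0.203). SMAD4 was no longer called without miR-1 replicate 2, and SMAD2 without empty vector replicate 2 or either miR-1 replicate. SMAD9, with 49.4 and 48.4 CPM against 53.3 and 54.1, had a log2 fold change of -0.13 and an adjusted p of 0.0695 (edgeR).

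In miR-122 cells no SMAD was called, beside 5.92% of all genes, while 3 (SMAD2, SMAD5 and SMAD6) had an unadjusted p under 0.05 and DESeq2 and the edgeR likelihood ratio test called 0. Without empty vector replicate 2, whose SMAD7 level was 22.5 CPM against 18.6 in the other control library, SMAD7 was called higher with miR-122 (log2 fold change 0.32, adjusted p = 0.0160, edgeR, within 0.0160 to 0.878 over all alternatives) and also with miR-1 (0.29, adjusted p = 0.0222, within 0.0222 to 0.992), 2 comparisons that share the control libraries. With both control libraries the log2 fold changes were 0.18 and 0.13. The only SMAD called between miR-1 and miR-122 was SMAD6. Its CPM was 21.6 and 20.9 with miR-1 and 16.4 and 15.6 with miR-122, against 18.2 and 19.4 in empty vector cells, so the control lay between the 2 miRNAs. The log2 difference was 0.41 (SE 0.0807, adjusted p = 0.000686, edgeR), 1 of 8 SMADs called beside 31.2% of all genes.

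**Figure D4:**
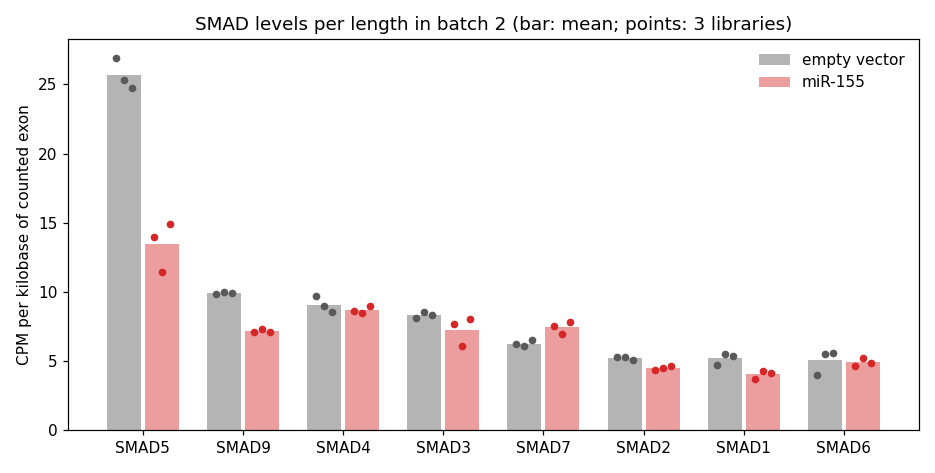
CPM per kilobase of counted exon for each SMAD in batch 2 empty vector (grey) and miR-155 (red) libraries. Bars are means and points the 3 libraries of each group. SMAD5 falls from 25.7 to 13.4 and stays the highest of the 8 genes.

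The pathway around the SMADs was read from 4 gene lists. Counts of called genes in these lists are to be read beside the share of all tested genes called in the same comparison, which was 7.63% with miR-155. Of 12 tested TGF-beta family receptors, 2 fell with miR-155 and none rose. ACVR2B, a type II receptor for activins, fell by 0.48 on the log2 scale (52.2 ± 11.7 against 72.9 ± 3.37 CPM, SD, n = 3), and TGFBR1, the type I receptor for TGF-beta, fell by 0.29. None of 17 tested ligands and extracellular antagonists was called with miR-155 by edgeR. Of 24 tested SMAD partners, corepressors and turnover factors, 2 fell and 1 rose. SKI, a corepressor that binds SMADs, fell by 0.90 on the log2 scale (106 ± 16.3 against 198.5 ± 19.0 CPM, adjusted p = 4.87e-06, edgeR), and ZFYVE16, an endosomal protein that binds SMADs, fell by 0.36. SKIL, a relative of SKI, rose by 0.30. Of 13 tested SMAD-responsive genes 3 rose and 1 fell. CDKN1A, a cell cycle inhibitor, rose by 0.52 and BAMBI, a decoy receptor, by 0.45, while ID4, of the ID family that BMP signals induce, fell by 0.32. The list medians were 0.00 for receptors, -0.09 for ligands, -0.12 for partners and 0.15 for responsive genes.

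With miR-302a, then miR-372, then miR-373, the receptor of largest change was the same. TGFBR2, the type II TGF-beta receptor, had 18.8 ± 0.958 CPM in empty vector cells and 8.46 ± 0.748, 8.96 ± 0.909 and 9.84 ± 0.542 with the 3 miRNAs, falls of 1.15, 1.05 and 0.93 on the log2 scale. BMPR2, the type II BMP receptor, fell by 0.51, 0.58 and 0.47. With miR-155 the values of these genes were -0.03 for TGFBR2 and 0.21 for BMPR2, neither past the threshold. In all, 3, 2 and 2 of 12 receptors fell and 2, 2 and 1 rose, in the same order, beside 7.88%, 11.4% and 5.13% of all tested genes called. TGFBR3, a coreceptor, rose by 0.40, 0.43 and 0.33 with the 3 miRNAs, and ACVR2B rose by 0.43 with miR-302a and 0.44 with miR-372. ACVR1C, a type I receptor, fell by 0.82 with miR-302a.

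The 3 miRNAs also lowered 2, 4 and 2 of 17 ligands and antagonists. GDF11, a ligand, fell by 0.70, 0.73 and 0.66, and FST, an activin antagonist at only 1.75 to 3.59 CPM, by 0.92, 1.02 and 0.95 on the log2 scale. FSTL1 fell by 0.28 with miR-372. Of 24 partners 2, 3 and 1 fell and 0, 1 and 1 rose. ZEB1, a SMAD-binding repressor, fell by 0.49 with miR-302a and 0.50 with miR-372, ZFYVE16 by 0.35 with miR-302a, and RUNX2, a SMAD-binding transcription factor, by 0.58 with miR-372 and 0.62 with miR-373. ZNF423, a zinc finger protein that binds SMADs, rose by 0.68 with miR-372 and 0.64 with miR-373. Of 13 responsive genes 2, 1 and 1 fell and none rose. CDKN2B, a cell cycle inhibitor that TGF-beta induces, fell by 0.67, 0.62 and 0.61, and CDKN1A fell by 0.37 with miR-302a.

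With miR-133a, where 5.34% of all tested genes were called, 2 of 12 receptors fell, TGFBR1 by 0.47 and TGFBR3 by 0.29, as did 2 of 17 ligands and antagonists, FSTL1 by 0.43 and LTBP1, which anchors latent TGF-beta, by 0.28. No partner and no responsive gene was called by edgeR. With miR-1, where 24.5% of all tested genes were called, 2 of 12 receptors fell and 3 rose, 5 of 17 ligands and antagonists fell, 1 of 24 partners fell and 3 rose, and 1 of 13 responsive genes fell and 3 rose. ACVRL1 fell by 0.50 and TGFBR3 by 0.28, and ACVR2B rose by 0.30. FST, INHBB and BMP4, each under 5 CPM, fell by 0.69, 0.65 and 0.59. Among the partners ZEB1 rose by 0.21, the deubiquitinase USP9X by 0.20, and the ubiquitin ligase RNF111 fell by 0.20, and among the responsive genes ID4 fell by 0.36, CDKN1A rose by 0.29 and KLF10 by 0.23.

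With miR-122, where 5.92% of all tested genes were called, 1 of 12 receptors rose (ACVR2B by 0.19) and 1 of 17 ligands and antagonists fell (FSTL1 by 0.20). Of 24 partners 5 fell and 2 rose. SMURF2, a ubiquitin ligase for SMADs and receptors, fell by 0.56, ZEB2, a SMAD-binding repressor, by 0.54 and SKIL by 0.27. Of 13 responsive genes CDKN1A fell by 0.32, and JUNB and ID2 rose by 0.27 and 0.22.

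**Figure D5:**
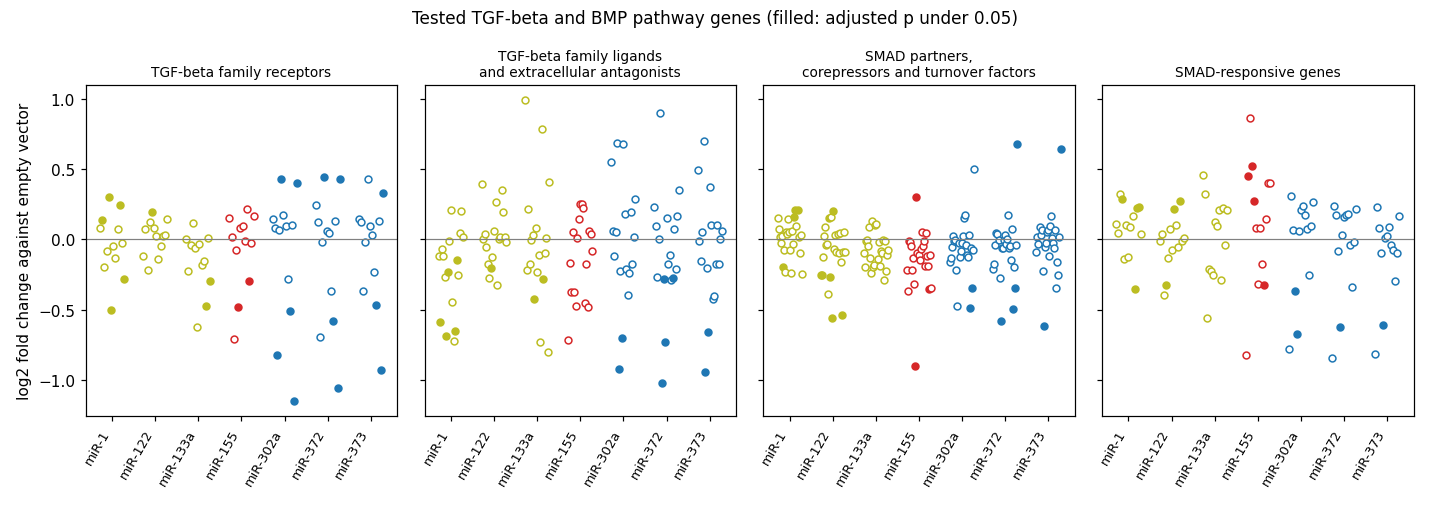
Log2 fold change against empty vector of every tested gene of the 4 pathway lists, by miRNA. Filled points have an adjusted p under 0.05, open points do not. The lowest receptor points, at -1.15, -1.05 and -0.93, are TGFBR2 with the 3 miRNAs of shared seed.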

How the data were processed

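Strand-specific RNA-seq reads were mapped to hg19 with TopHat2 2.1.1 and counted over exons per gene with featureCounts by the authors, who deposited the raw counts and a feature length per gene in 1 table per batch. Tables of the authors' own comparisons (edgeR 3.24.3 fold changes and p-values, and their combination with nascent transcription) were not used. From the counts, each batch was fitted with edgeR 4.0.16 in R 4.3.3 (filterByExpr with minimum count 10, TMM, quasi-likelihood test, group as the only term, prior count 0.125, Benjamini-Hochberg adjustment over all tested genes, threshold 0.05), and intervals are 95%. The fit was tested on simulated data. Of 100 genes given a log2 change of 0.5 in either direction, 55 were recovered for miR-155 and 78 for miR-1. At a log2 change of 1 these numbers were 88 and 90. Smaller changes were not simulated, so a SMAD that was not called may still have changed. Read totals were 20153452 to 21595191 in batch 1 and 13047400 to 35040778 in batch 2, and SMAD precision is limited by read number and by 2 or 3 libraries a group.

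Replicates never agreed within sampling noise (chi-square per degree of freedom 1.81 to 35.3). Library deviations at the same replicate number correlated above 0.1 in all 3 pairs for miR-155 with miR-133a (0.183 to 0.345), miR-302a (0.112 to 0.202) and miR-372 (0.273 to 0.614). The same held for miR-133a with miR-372 (0.137 to 0.300) and for miR-302a with miR-372 (0.161 to 0.336). It held in no pair of groups with empty vector. For miR-133a with miR-302a the correlations were -0.0891 to 0.00838, so a pairing of libraries by replicate number is not established. Gene symbols were matched for 28543 of 29794 genes. Seed matches were found in GENCODE 44 lifted to GRCh37 with RefSeq mature miRNAs. Of the SMADs, SMAD2, SMAD4, SMAD6 and SMAD9 overlap same-strand annotations that the count tables lack.

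Named genes are all SMADs, at most 3 called genes of largest fold change per list and miRNA, and 3 genes most correlated with the SMAD of largest called change (mean log2 CPM of at least 1). A receptor named by this rule for 1 miRNA was in places also given with another, called or not. Markers and well-known targets were named as well. The members, lists and tests were chosen with earlier results of these data known.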

Additional observations from a re-analysis of the deposited data

How the results depend on the processing

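Over 128 SMAD log2 fold changes, 1664 alternative values were computed. In 1606 the status stood as reported, called or not called, 53 lost a call, 5 gained a call, and no called value changed sign. Most of the 128 were not called, so most of the 1606 had no call to lose. The 53 losses all fell on the few that were called, and most were of SMAD2. SMAD5 and SMAD9 with miR-155, and SMAD9 with miR-372, were called under each. With 1 batch 1 library left out, the lone library of its group is assumed to vary like the others. Depth limits SMAD1, SMAD6 and SMAD7 most.

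With miR-155 the number of SMADs called was 2 in place of 3, without SMAD2, with DESeq2 size factors, no filter or only the compared groups and when any 1 library was left out. For miR-155 against miR-133a it was 2 in place of 3 with no filter, and 2 to 3 with 1 library left out. The number called with miR-1 fell from 2 to 0 with DESeq2 and to 1 with no filter, with the replicate block, and with only the compared groups. For miR-302a it fell from 2 to 1 with DESeq2 size factors and to 0 with no filter or only the compared groups. For miR-372 it fell from 2 to 1 under all 3 of these, and over the mean of the 3 shared-seed miRNAs from 2 to 1 with no filter or only the compared groups. With only the compared groups it was 1 for miR-133a, 2 for miR-1 against miR-122 and 1 for miR-155 against miR-373, which was also 1 with no filter. The replicate block gave 2 for miR-155 against miR-302a. Leaving out 1 library gave 0 to 2 for miR-1, 0 to 1 for miR-122, 1 to 2 for miR-372, 0 to 2 for miR-302a, 1 to 2 for the mean of the 3 and 1 to 2 for miR-155 against miR-373. The cause was not tested.

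Over the 4 pathway lists together, the genes called were 18 with miR-1 (7 with DESeq2), 12 with miR-122 (6 with DESeq2), 4 with miR-133a (7 with DESeq2, 8 with the replicate block, 11 with only the compared groups) and 9 with miR-155 (5 with only the compared groups). The block changed no SMAD call other than SMAD2 with miR-1 and SMAD9 for miR-155 against miR-302a. It raised the genes called with miR-155 from 1073 to 1663 and with miR-133a from 750 to 1308. In batch 1 it lowered them, with miR-1 from 3520 to 2939 and with miR-122 from 849 to 656.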
